A study of Mus musculus with 6 samples.

Results

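The genes described here are 10 components of the machinery through which T cells read their antigen receptor, measured in group 2 innate lymphoid cells (ILC2s), which have no such receptor. They are the CD3 chain genes Cd3d, Cd3e, Cd3g and Cd247, the coreceptor genes Cd4 and Cd8a, the surface receptor genes Cd5 and Cd6, and the signalling genes Lat and Zap70. They were chosen by gene symbol, and all 10 were found among the 23268 genes measured. The colons were those of C57BL/6 mice, 6 to 8 weeks old, and ILC2s were sorted from them. In the first group (DSS, n = 3 libraries) the mice took 3% dextran sulfate sodium for 6 days, which damages the lining of the colon and brings on colitis. In the second group (control, n = 3 libraries) the mice took water for the same 6 days. No transgene or mutant allele is named for either group. RNA sequencing of full-length cDNA gave FPKM values, which are fragments scaled to the length of the gene and the size of the library. The comparison asks which of these transcripts differ between ILC2s of the inflamed and of the undisturbed colon.

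In a T cell the antigen receptor has no signalling domain of its own and is held at the surface with the CD3 chains, whose tails carry paired tyrosine motifs. When the receptor binds, the kinase Lck, brought close by CD4 or CD8, phosphorylates these tails. The kinase encoded by Zap70 docks on them and in turn phosphorylates the membrane adaptor encoded by Lat, which gathers the enzymes that raise calcium and activate Ras. CD5 and CD6 are scavenger receptor family proteins that tune the strength of this signal. ILC2s descend from the same lymphoid progenitors as T cells and are known to share part of their transcription factors and surface receptors.

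Whole fragments could be read back from the FPKM steps and numbered 14986542, 19196109 and 10093907 in DSS replicates 1, 2 and 3, and 23373279, 17728464 and 12820116 in control replicates 1, 2 and 3. The libraries did not all look alike. Genes at 1 FPKM or more numbered 17579 in DSS replicate 3 and 14326 in control replicate 3, and 10120 to 10785 in the other 4 libraries. The median over all genes was 2.61 FPKM in DSS replicate 3, 1.64 in control replicate 3 and 0.398 to 0.777 in the others, so a level of 1 to 3 FPKM is common in both replicates 3. On the first principal component, which held 48.1% of the variance, DSS replicate 3 scored 70.48 and control replicate 3 scored 28.31. The other 4 libraries scored -33.03 to -10.87 on it. DSS replicate 1 stood apart on the second principal component (score 57.93, against -27.79 to 9.40 in the other 5), which held 28.5% of the variance. ILC2 markers were abundant in both groups. Over 10 genes they summed to 4649 to 7466 FPKM in DSS libraries and 6237 to 7171 in control libraries. Most of each sum was Id2 and Areg, which averaged 3358 and 1045 FPKM in DSS libraries and 3567 and 1071 in control libraries. Of the 10 genes, 8 had a lower mean in DSS libraries. Gata3, the factor that defines the lineage, measured 287 to 674 FPKM in DSS libraries and 841 to 885 in control libraries. Of 8 T cell markers 5 were among the genes used here, and their sum was 1.08 to 9.34 FPKM in DSS libraries and 2.28 to 8.47 in control libraries. T cell receptor constant region genes were not analysed here, and the sum holds none of them. The labels do not say whether a library is 1 mouse or a pool. The p-values below set group differences against the spread between these libraries, which may be technical. For each gene limma draws this spread partly from the other genes tested. In sorted bulk samples, fewer cells that carry a transcript and less of it per cell cannot be told apart.

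The genomic windows around the start sites of 4 members are shown because these genes carry the results. Zap70 and Lat lay on opposite sides of the control libraries, and Cd3g and Cd3d are neighbours on chromosome 9 that start 1355 bases apart on opposite strands yet differed widely in level. Each window runs from 250 bases before to 50 bases after the start site (RefSeq, GRCm38.p6, the build named mm10 by the submitters), written 5′ to 3′ on the gene's strand. Capitals mark AGATAA (the letters GATA factors bind), TGTGGT (RUNX), GGAAGT (ETS) and CTTTGA (TCF), or their reverse complements. A window held by RefSeq was found for 8 of the 10 members, and not for Cd4 and Cd6.
Zap70 (chr1:36761548-36761847, plus strand): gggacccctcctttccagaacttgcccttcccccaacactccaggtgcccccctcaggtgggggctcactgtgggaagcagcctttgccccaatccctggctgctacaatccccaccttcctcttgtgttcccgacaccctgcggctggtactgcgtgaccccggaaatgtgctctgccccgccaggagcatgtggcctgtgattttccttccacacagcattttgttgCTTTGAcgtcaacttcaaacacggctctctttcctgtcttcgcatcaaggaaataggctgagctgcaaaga
Lat (chr7:126369519-126369818, minus strand): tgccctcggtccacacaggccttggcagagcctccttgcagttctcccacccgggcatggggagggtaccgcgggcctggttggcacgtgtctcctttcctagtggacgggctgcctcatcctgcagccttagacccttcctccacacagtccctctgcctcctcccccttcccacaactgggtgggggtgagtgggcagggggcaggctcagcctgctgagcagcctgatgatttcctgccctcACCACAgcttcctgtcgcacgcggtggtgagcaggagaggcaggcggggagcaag
Cd3g (chr9:44980382-44980681, minus strand): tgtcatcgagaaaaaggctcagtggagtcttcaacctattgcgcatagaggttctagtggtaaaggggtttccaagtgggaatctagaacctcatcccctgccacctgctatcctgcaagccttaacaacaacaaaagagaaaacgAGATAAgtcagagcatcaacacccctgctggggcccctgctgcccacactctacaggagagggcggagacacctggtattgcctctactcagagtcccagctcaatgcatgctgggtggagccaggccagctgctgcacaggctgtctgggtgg
Cd3d (chr9:44981536-44981835, plus strand): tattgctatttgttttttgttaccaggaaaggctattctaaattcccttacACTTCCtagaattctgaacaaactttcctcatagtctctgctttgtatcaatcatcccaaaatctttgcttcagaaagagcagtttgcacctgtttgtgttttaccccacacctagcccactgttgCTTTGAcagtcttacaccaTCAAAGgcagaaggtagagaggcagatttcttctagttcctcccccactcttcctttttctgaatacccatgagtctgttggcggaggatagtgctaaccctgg
In these 4 windows the Cd3g promoter held 1 GATA match, the Lat promoter 1 RUNX match, the Zap70 promoter 1 TCF match, and the Cd3d promoter 1 ETS and 2 TCF matches, none overlapping another. Of 32851 mouse promoter windows of the same length, 11.2% held the GATA letters, 16.8% the RUNX letters, 23.8% the ETS letters and 16.0% the TCF letters. Over the 8 members with a window, 1, 1, 4 and 3 held them in that order. RefSeq gives 3 starts for Zap70, and the most upstream is printed.

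The members fell into 3 abundant genes and 7 scarce ones. Lat averaged 127 ± 18.9 FPKM in DSS libraries and 92.0 ± 16.1 in control libraries, Zap70 averaged 77.0 ± 12.4 FPKM in DSS libraries and 140 ± 11.3 in control libraries, and Cd3g averaged 24.0 ± 11.8 FPKM in DSS libraries and 20.5 ± 4.78 in control libraries (SD, n = 3 each). Lat lay between the 97.9th and 98.0th percentile of all genes in the DSS libraries and between the 96.8th and 97.5th in the control libraries. The other 7 members had group means of 0.133 to 5.71 FPKM. On the deposited FPKM scale Lat and Zap70 were above Cd3g in every library, and Cd3g was above Cd3d, the next in order. From Cd3d downward, through Cd3e, Cd247, Cd4, Cd6, Cd8a and Cd5, neighbours in the order overlapped over the 6 libraries, so their order was not resolved, though within the control group Cd6 was above Cd8a in each library. The sorted cells thus carried the transcripts of the kinase and the adaptor at levels far above those measured for Cd3d, Cd3e and Cd247. Cd247 shares 3007 exon bases with Pou2f1 on the opposite strand, and how shared fragments were counted is not given, so its level is less certain.

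**Figure D1:**
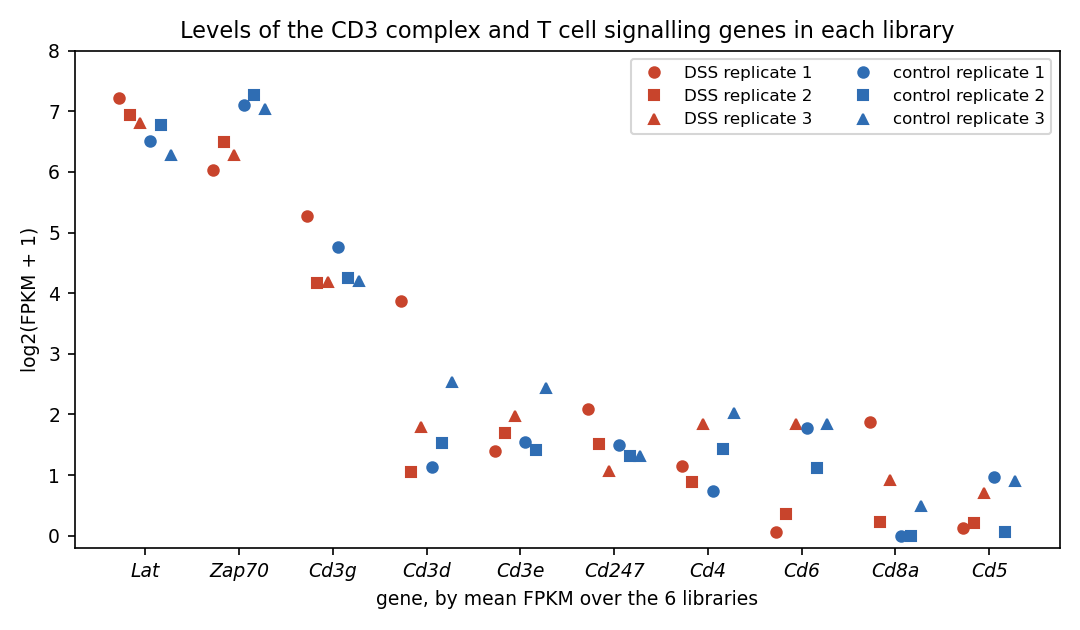
Level of each of the 10 genes in each library, as log2(FPKM + 1), with DSS libraries in red on the left of each gene and control libraries in blue on the right; symbols give the replicate number. Lat, Zap70 and Cd3g stand above the other 7 genes in every library, and within those 7 only DSS replicate 1 rises far for Cd3d and Cd8a.

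None of the 10 genes passed the test between DSS and control. Of the 8 members with a mean of at least 1 FPKM over the 6 libraries, 0 had a limma adjusted p under 0.05, where 27 of the 12187 genes tested (0.222%) passed. The members split into 4 higher and 4 lower in DSS, where 46.9% of all genes tested were lower. At an unadjusted p under 0.05 there was 1 member, Zap70, where 8.99% of all genes tested had such a p. By limma voom on the recovered fragments, which tested all 10 members, 0 passed (51 of 16191 genes, 0.315%). The median log2 change of the 8 was 0.017, and it was 0.017 over all 10 without the filter, beside 0.031 over all genes tested. The groups did not overlap for 2 of the 8, Zap70 and Lat, and for 16.0% of all genes tested. A log2 change here is DSS minus control, taken on log2(FPKM + 1), and it is too small for scarce genes.

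Zap70, which encodes the kinase that binds the phosphorylated CD3 tails, was lower in each DSS library than in any control library. It measured 64.6, 89.5 and 76.7 FPKM in DSS replicates 1, 2 and 3, against 137, 153 and 131 FPKM in control replicates 1, 2 and 3. The highest DSS library thus lay well below the lowest control library. These values rest on 1740 to 3858 fragments in the DSS libraries and 3770 to 7166 in the control libraries. The mean was 1.82-fold lower in DSS libraries, with a log2 change of -0.86 ± 0.20 (SE). This missed the threshold, at a limma adjusted p over all genes of 0.156. Without DSS replicate 3, the library furthest out on the first principal component, the limma adjusted p was 0.160. Without DSS replicate 1, furthest out on the second component, Zap70 passed. The log2 change was then -0.75 ± 0.13 (SE), with a limma adjusted p of 0.0111. In that fit 3.47% of 12530 genes passed, 2.32% lower and 1.15% higher in DSS, so calls became more frequent across the transcriptome. In the other alternatives 0 members passed by limma, where the share of all genes called was 0.213% and 0.222% with pseudocounts of 0.1 and 5, 0.0881% without the filter and 0.446% at a mean of at least 5 FPKM. It was 0.0772% with median-of-ratios scaling, 0.156% with quantile scaling and 0.181% with the replicate block. It was 0.0553% and 0.138% without DSS replicates 2 and 3, 0.0388%, 0.0390% and 0.0510% without control replicates 1, 2 and 3, and 0.0768% without both replicates 3. Without both replicates 3 the change was -0.92 and the limma adjusted p 0.392. The gene lies on the plus strand of chromosome 1 (mm10, 36761798 to 36782818) and shares no exon bases with an annotated neighbour. Of the 10 ILC2 markers 8 also had a lower mean in DSS libraries, Gata3 at 287, 652 and 674 FPKM in DSS replicates 1, 2 and 3, against 885, 841 and 852 FPKM in control replicates 1, 2 and 3. Neutrophil markers summed to 66.4 to 99.2 FPKM in DSS libraries and 2.97 to 5.57 in control libraries. S100a8, S100a9 and Retnlg made up most of the DSS sums. Of the other neutrophil markers, Csf3r overlapped between the groups and Cxcr2 averaged 0.353 FPKM in DSS libraries and 0.333 in control libraries. Mmp9 was lower, at 0.842 FPKM in DSS libraries and 1.28 in control libraries. The part of either marker set in the Zap70 difference was not tested.

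Lat, which encodes the adaptor that this kinase phosphorylates, was higher in DSS libraries without passing. It measured 148, 122 and 112 FPKM in DSS replicates 1, 2 and 3, against 90.1, 109 and 77.0 FPKM in control replicates 1, 2 and 3. The lowest DSS library was above the highest control library by a narrow margin, 111.5 against 108.9 FPKM. The log2 change was 0.47 ± 0.22 (SE, limma adjusted p = 0.576), resting on 1219 to 2886 fragments per library. Its direction was positive in each of the other 15 settings, from 0.35 to 0.59. Without DSS replicate 1 it was 0.35, and the median over all genes was 0.13 in that fit. Lat lies on the minus strand of chromosome 7 (mm10, 126363824 to 126369570), and 75 of its exon bases are also those of the microRNA hairpin Mir7058 on the same strand.

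Because both genes are measured in the same libraries, their ratio does not depend on library scaling. Zap70 over Lat in FPKM was 0.436, 0.735 and 0.688 in DSS replicates 1, 2 and 3, against 1.51, 1.40 and 1.70 in control replicates 1, 2 and 3. Zap70 was the more abundant transcript per length in every control library, and Lat was in every DSS library. This ratio was formed after the values of both genes were seen, and it is given as a description with no test.

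**Figure D2:**
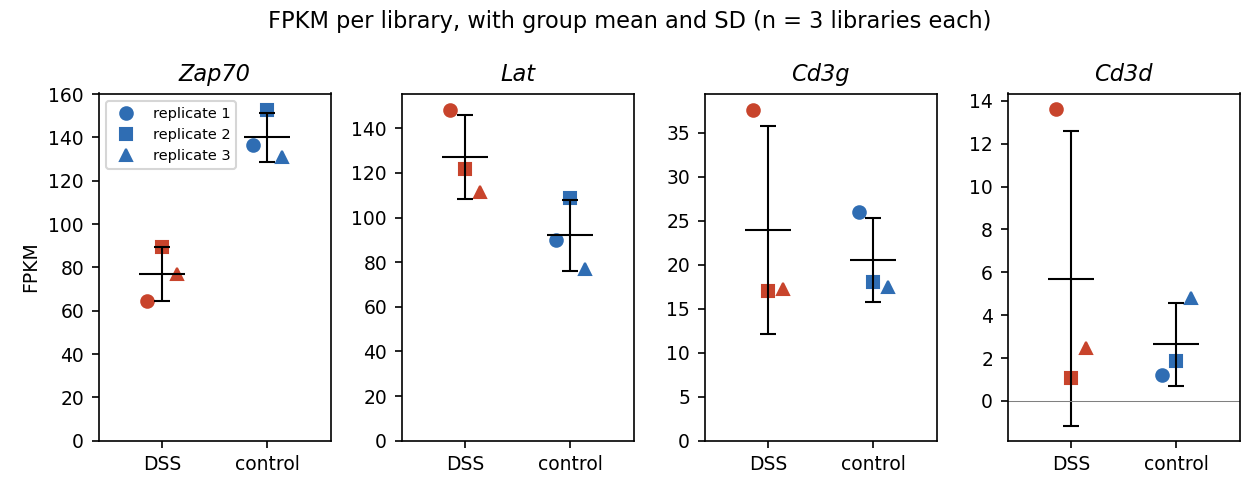
FPKM of Zap70, Lat, Cd3g and Cd3d in each library, DSS left in red and control right in blue, with the group mean (wide bar) and SD (n = 3 libraries each); the lower SD bar of Cd3d in DSS reaches below 0 because 1 library is far above the others. Zap70 has all DSS libraries below all control libraries, Lat has them just above, and in Cd3g and Cd3d DSS replicate 1 stands alone at 37.6 and 13.6 FPKM.

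The CD3 chains are known to be needed together at the T cell surface, and their transcripts were far from equal here. Cd3g, which encodes the gamma chain, measured 37.6, 17.0 and 17.2 FPKM in DSS replicates 1, 2 and 3, against 26.0, 18.0 and 17.5 FPKM in control replicates 1, 2 and 3. The groups overlapped, and DSS replicate 1 and control replicate 1 were the highest of their groups. The log2 change was 0.14 ± 0.32 (SE, limma adjusted p = 0.934), and it was -0.22 without DSS replicate 1. Cd3d, which encodes the delta chain, measured 13.6, 1.06 and 2.45 FPKM in DSS replicates 1, 2 and 3, against 1.19, 1.88 and 4.82 FPKM in control replicates 1, 2 and 3. One DSS library held 330 of the 403 Cd3d fragments of its group. The Cd3d log2 change was 0.50 ± 0.66 (SE, limma adjusted p = 0.884), and it was -0.32 without that library.

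Cd3e, which encodes the epsilon chain that pairs with each of the other 2, measured 1.62, 2.23 and 2.95 FPKM in DSS replicates 1, 2 and 3, against 1.93, 1.66 and 4.43 FPKM in control replicates 1, 2 and 3. It was highest in replicate 3 of each group, where scarce transcripts were more widely detected. Its log2 change was -0.11 ± 0.37 (SE, limma adjusted p = 0.958), and the sign turned with the setting. Cd247, which encodes the zeta chain also used by natural killer cell receptors, measured 3.27, 1.87 and 1.11 FPKM in DSS replicates 1, 2 and 3, against 1.84, 1.49 and 1.48 FPKM in control replicates 1, 2 and 3. The DSS libraries bracketed the control libraries, and the log2 change was 0.19 ± 0.39 (SE, limma adjusted p = 0.925). Its exons share 3007 bases with Pou2f1 on the opposite strand, which these unstranded libraries cannot separate, and 206 with Gm16565 on the same strand. Pou2f1 itself averaged 1.95 ± 0.452 FPKM in DSS libraries and 2.31 ± 0.263 in control libraries (SD, n = 3 each). Cd3e shares 135 exon bases with the antisense gene Gm48719.

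The level of Cd3g depends on the length it is divided by. The lengths behind the deposited values could be read back and equalled an annotated GENCODE M21 transcript for each of the 10 members. For Cd3g that transcript was 2539 bases long and annotated as a retained intron, while its coding transcript has 1023 bases. For Cd3e it was a retained intron transcript of 2550 bases, with a coding transcript of 1462 bases. On the coding lengths, Cd3g measured 93.3, 42.3 and 42.8 FPKM in DSS replicates 1, 2 and 3, against 64.6, 44.6 and 43.4 in control replicates 1, 2 and 3. On the same scale Cd3e measured 2.83, 3.88 and 5.15 in DSS replicates 1, 2 and 3, against 3.36, 2.89 and 7.73 in control replicates 1, 2 and 3. Cd3g was then 8.31-fold to 33.0-fold above Cd3e in DSS libraries and 5.62-fold to 19.2-fold above it in control libraries. Over Cd3d it was 6.85-fold to 39.8-fold higher in DSS libraries and 9.01-fold to 54.2-fold higher in control libraries. Zap70 was 0.693-fold to 2.12-fold of Cd3g in DSS libraries on that scale and 2.11-fold to 3.42-fold in control libraries, so in DSS replicate 1 Cd3g was the higher. How many fragments came from the retained intron cannot be read from gene totals. Any such fragments would put the level of the coding transcript below these values. For Cd3e, how fragments shared with Gm48719 were counted is not given, so no firm upper limit follows.

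The coreceptor genes were scarce, and Cd8a was undetected in 2 control libraries. Cd4, which marks helper T cells and is also known from lymphoid tissue inducer cells and macrophages, measured 1.22, 0.838 and 2.58 FPKM in DSS replicates 1, 2 and 3, against 0.661, 1.71 and 3.06 FPKM in control replicates 1, 2 and 3. Replicate 3 was the highest in both groups, and the log2 change was -0.11 ± 0.47 (SE, limma adjusted p = 0.973). Cd8a, which encodes the alpha chain of CD8 and is also carried by some dendritic cells, measured 2.67, 0.166 and 0.886 FPKM in DSS replicates 1, 2 and 3. In control replicates 1 and 2 it had 0 fragments, which allows up to 0.0410 and 0.0541 FPKM (3 fragments), and control replicate 3 had 0.399 FPKM. Those 125, 10 and 28 fragments in DSS libraries and 16 in the control group left Cd8a under the filter. Without the filter its log2 change was 0.84 ± 0.45 (SE, limma adjusted p = 0.963), with DSS replicate 2 below control replicate 3. By voom it was 4.48 ± 2.77 (SE, limma voom adjusted p = 0.704), a size that depends on the small count voom adds where a library is at 0.

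Cd5 and Cd6, neighbouring genes on chromosome 19, had their lowest values in DSS replicates 1 and 2 and control replicate 2. Cd6 measured 0.0440, 0.275 and 2.58 FPKM in DSS replicates 1, 2 and 3, against 2.44, 1.17 and 2.57 FPKM in control replicates 1, 2 and 3. DSS replicates 1 and 2, with 2 and 16 fragments, were below every control library, while DSS replicate 3 was level with the highest. The log2 change was -0.83 ± 0.56 (SE, limma adjusted p = 0.745). It was -1.37 without DSS replicate 3 and -0.48 without DSS replicate 1, and by voom -2.80 ± 1.29 (SE, limma voom adjusted p = 0.664). Cd5 measured 0.0893, 0.157 and 0.629 FPKM in DSS replicates 1, 2 and 3, against 0.959, 0.0377 and 0.861 FPKM in control replicates 1, 2 and 3. These are 2 to 67 fragments per library. Cd5 was not tested in the main comparison, and without the filter its log2 change was -0.29 ± 0.35 (SE, limma adjusted p = 0.963).

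The scarce members did not move as a block. DSS replicate 1 had the highest Cd3d, Cd3g, Cd247 and Cd8a of all 6 libraries and the lowest Cd3e and Cd6. In the same library Cd8b1, which encodes the other chain of CD8, was 5.85 FPKM, but it was 5.81 FPKM in DSS replicate 3 and 0.316 in DSS replicate 2, against 1.15, 0 and 1.79 FPKM in control replicates 1, 2 and 3. Markers of natural killer cells and ILC1s summed to 134, 94.0 and 65.6 FPKM over 8 genes in DSS replicates 1, 2 and 3, against 52.2, 60.5 and 92.0 FPKM in control replicates 1, 2 and 3. The T cell marker sum was 9.34, 1.08 and 8.80 FPKM in DSS replicates 1, 2 and 3, against 2.28, 2.79 and 8.47 FPKM in control replicates 1, 2 and 3. Over these 5 T cell markers, Foxp3 and Cd8b1 were at 0 in control replicate 2 and none was at 0 in a DSS library. Of the defining natural killer cell markers, Ncr1 was 10.2 FPKM in DSS replicate 1 and 1.77 to 6.57 in the other 5 libraries. Klrb1c was 2.49 FPKM in DSS replicate 1, below DSS replicate 3 (4.87) and control replicate 3 (4.22). Eomes was highest in DSS replicate 3, at 1.11 FPKM against 0.674 in DSS replicate 1, and was at 0 in DSS replicate 2 and control replicate 2. Not every gene of that list was high in DSS replicate 1: Tbx21 was 0.858 FPKM there and 5.17 to 10.05 in the other 5 libraries, and Xcl1 and Gzma, at 70.8 and 41.6 FPKM, made up most of its sum. The part of such cells in the levels of Cd3d, Cd3g and Cd8a was not tested. Summed macrophage markers were 14.7 to 33.0 FPKM in DSS libraries and 10.1 to 14.7 in control libraries. Dendritic cell markers summed to 8.17 to 23.3 FPKM in DSS libraries and 15.0 to 21.5 in control libraries, with genes on both sides. Of these 8 genes, 6 had a higher mean in DSS libraries. Flt3, under the filter, averaged 1.41 FPKM in DSS libraries and 0.262 in control libraries, without overlap. The exceptions, Zbtb46 and Xcr1, had all DSS libraries below all control libraries. Zbtb46 averaged 3.46 FPKM in DSS libraries and 9.21 in control libraries. Xcr1 measured 0.989 to 2.91 FPKM in DSS libraries and 5.23 to 8.13 in control libraries. Lymphoid tissue inducer and ILC3 markers summed to 85.3 to 338 FPKM in DSS libraries and 236 to 346 in control libraries, and B cell markers to 14.4 to 26.0 FPKM in DSS libraries and 10.7 to 17.2 in control libraries. Epithelial markers summed to 24.3 to 27.2 FPKM in DSS libraries and 10.9 to 17.0 in control libraries.

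**Figure D3:**
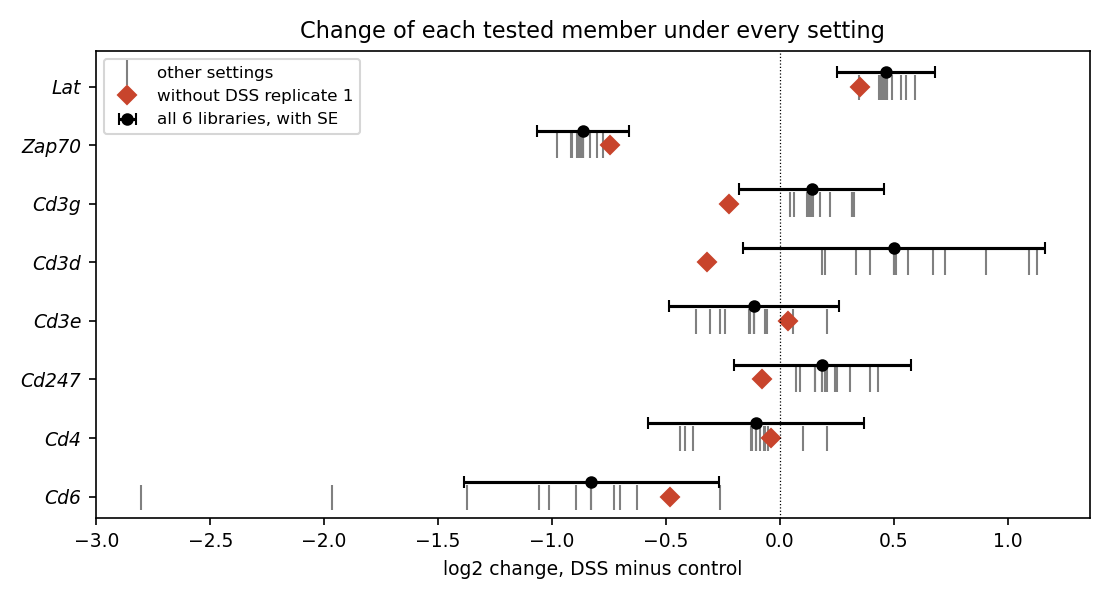
Log2 change, DSS minus control, of each of the 8 tested members with all 6 libraries (black, with SE), without DSS replicate 1 (red diamonds) and in the other settings (grey ticks). Zap70 stays at -0.98 to -0.75 and Lat at 0.35 to 0.59, while Cd3g, Cd3d, Cd3e, Cd247 and Cd4 lie on both sides of 0.

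The other genes of the same relay were read beside the members, in 7 lists of 91 genes of which 82 were abundant enough to test. By limma 0 of the 82 passed, 15 had an unadjusted p under 0.05 and all 15 were lower in DSS, where 5.42% of all genes tested had such a p and were lower. All DSS libraries lay below all control libraries for 19 of the 82 (23.2%) and above them for 1 (1.2%), beside 9.60% and 6.35% of all genes tested. The lists were chosen with earlier results of these data known, so these shares are a description only. The median log2 change of the 82 was -0.17, and -0.13 over all 91 without the filter, where the medians of all genes were 0.031 and 0.12. Most of these pathway genes were abundant, 68 of them averaging at least 5 FPKM. Over all 6734 genes at that level the median was lower, at -0.0805. Without DSS replicate 1, 8 of the 82 passed, 7 lower and 1 higher, where 2.32% of all genes passed lower and 1.15% higher. Voom called 1 of 89, and 0.315% of all genes.

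Among the other proximal kinases 0 of 9 passed, with 8 lower and a median of -0.16. Lck, the kinase that phosphorylates the CD3 tails, measured 20.6 ± 4.24 FPKM in DSS libraries and 26.9 ± 3.80 in control libraries (SD, n = 3 each), and its relative Fyn 26.3 ± 3.90 FPKM in DSS libraries and 29.2 ± 2.52 in control libraries, both overlapping. Unlike Zap70, the Lck and Fyn values of the groups thus ran into each other.

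Of 17 tested adaptors and exchange factors 0 passed, and 13 were lower with a median of -0.10. The 3 most abundant overlapped between the groups. Sh2d2a, a T cell adaptor that binds Lck, measured 120 ± 22.4 FPKM in DSS libraries and 143 ± 5.87 in control libraries. Skap1, an adaptor of integrin activation, measured 127 ± 37.5 FPKM in DSS libraries and 134 ± 12.3 in control libraries, and Tespa1, which takes part in thymocyte receptor signalling, 132 ± 33.5 FPKM in DSS libraries and 114 ± 11.0 in control libraries. Picked after their values were seen, Nck2 and Lcp2 had no overlap. All DSS libraries lay below all control libraries for 4 of the 17 (23.5%), beside 9.60% of all genes tested. Lcp2 encodes SLP-76, the adaptor that joins Lat, and measured 60.3 ± 16.0 FPKM in DSS libraries and 101 ± 5.68 in control libraries. Nck2, a linker to the actin skeleton, measured 17.2 ± 3.27 FPKM in DSS libraries and 33.3 ± 0.672 in control libraries (limma adjusted p = 0.144). Lat was therefore higher in DSS while Lcp2, its partner adaptor, had the opposite sign, and neither passed.

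The brakes on the relay lay on both sides of 0, with 8 of 16 higher, 8 lower, 0 passing and a median of -0.0007. Sla, which encodes the SLAP adaptor known for lowering receptor and CD3 zeta levels in T cells, measured 43.6 ± 9.95 FPKM in DSS libraries and 98.7 ± 5.14 in control libraries. Its log2 change was -1.18 ± 0.22 (SE) with a limma adjusted p of 0.0984, the lowest of the 82 genes, and it was the gene that voom called (limma voom adjusted p = 0.0305). Ptprc, the CD45 phosphatase of all leukocytes, measured 70.8 ± 1.64 FPKM in DSS libraries and 71.3 ± 3.27 in control libraries, and the docking protein gene Dok2 85.9 ± 11.4 FPKM in DSS libraries and 85.1 ± 5.95 in control libraries. Dgka, which encodes an enzyme that removes the lipid messenger of this relay and was picked after its values were seen, measured 64.7 ± 24.5 FPKM in DSS libraries and 39.3 ± 5.18 in control libraries. Without DSS replicate 1 it was the 1 gene of the 7 lists that passed upward (log2 change 0.99 ± 0.15 SE, limma adjusted p = 0.00493).

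Downstream of Lat, 14 of 16 calcium, Ras and NF-kB relay genes were lower, 0 passed and the median was -0.19. Orai1, the pore of the calcium channel opened by receptor signalling, measured 41.7 ± 5.67 FPKM in DSS libraries and 81.1 ± 0.975 in control libraries (log2 change -0.95 ± 0.19 SE, limma adjusted p = 0.118). Bcl10, which links the receptor to NF-kB, measured 44.9 ± 5.41 FPKM in DSS libraries and 64.8 ± 3.56 in control libraries, and Rasgrp1, an activator of Ras, 40.8 ± 2.02 FPKM in DSS libraries and 54.9 ± 2.85 in control libraries. For all 3 genes the highest DSS library was under the lowest control library.

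Of 13 tested T cell surface genes 0 passed, with 7 lower and a median of -0.13. The 3 most abundant are also known from ILC2s. Icos measured 163 ± 27.9 FPKM in DSS libraries and 293 ± 10.5 in control libraries, and Cd28 64.7 ± 18.8 FPKM in DSS libraries and 131 ± 15.0 in control libraries. Il2rb, a chain of the interleukin-2 and interleukin-15 receptors, measured 118 ± 51.4 FPKM in DSS libraries and 211 ± 19.2 in control libraries. None of these overlapped between the groups. They were the 3 of 13 surface genes (23.1%) with all DSS libraries below all control libraries, beside 9.60% of all genes tested. Icos, Cd28, Lcp2, Nck2, Sla, Orai1 and Satb1 are the 7 pathway genes that passed downward without DSS replicate 1 (limma adjusted p = 0.00117 to 0.0497). Of 11 T lineage transcription factors 0 passed and 9 were lower, with a median of -0.31, where 46.9% of all genes tested were lower. For 5 of the 11 all DSS libraries lay below all control libraries, beside 9.60% of all genes tested. This list too was chosen with earlier results known. Ets1 measured 126 ± 37.6 FPKM in DSS libraries and 194 ± 8.30 in control libraries, Runx3 69.8 ± 21.6 FPKM in DSS libraries and 79.5 ± 4.79 in control libraries, and the chromatin organiser gene Satb1 36.3 ± 4.73 FPKM in DSS libraries and 56.7 ± 2.19 in control libraries. The 4 antigen receptor assembly genes, Rag1, Rag2, Dntt and Ptcra, were all below the filter. Rag1 measured 0.161 to 2.08 FPKM in DSS libraries and 0 to 1.66 in control libraries, with the highest value of each group in replicate 3.

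**Figure D4:**
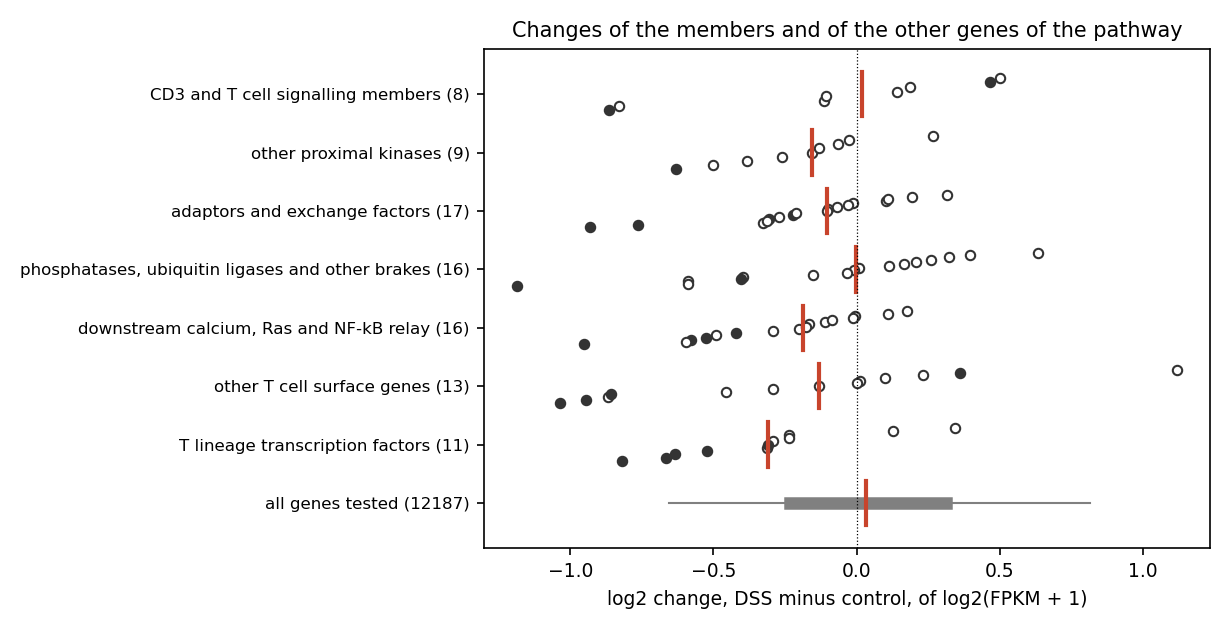
Log2 change, DSS minus control, of every tested gene in the members and in 6 lists of the pathway (number tested in brackets); filled points are genes whose groups do not overlap, red bars are medians, and the grey bar for all genes spans the middle 50% (thick) and 90% (thin). Medians of the lists lie between -0.31 and -0.0007, that of the members at 0.017 and that of all genes at 0.031.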

How the data were processed

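RNA of sorted colonic ILC2s was extracted with TRIzol, copied with a SMART-Seq HT kit and made into unstranded paired-end Nextera XT libraries, per the labels' protocols. Per the submitters' processing notes, the tools were cutadapt 1.9 and HISAT2 2.2.1, with build mm10. What counted the fragments, and with which annotation, is not given in the sources used here. FPKM values of 23268 genes were deposited by the authors as a single table. Samples were grouped by title and columns matched by name.

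Within each gene the FPKM values were whole multiples of a step (tolerance 0.001) for 22701 of 22701 genes above 0. Of 13549 genes above 0 in every library and named in GENCODE M21, 98.6% had an implied length equal to an annotated transcript (tolerance 0.1 bases); 268 of them, Zap70 included, needed a multiple of the smallest whole numbers. Libraries held 10093907 to 23373279 fragments. Limits from a count of 0 use 3 fragments and cover counting error only, without molecular identifiers. Between any 2 libraries chi-square per degree of freedom was 21.6 to 200.3, so no 2 were copies of each other. Each was counted as a sample, though this value cannot show whether 2 libraries came from separate mice.

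The test was limma 3.58.1 (R 4.3.3, two-sided, with a trend of variance on the mean) applied to log2(FPKM + 1). It covered the 12187 genes averaging at least 1 FPKM, with Benjamini-Hochberg adjustment over all of them and a threshold of 0.05. Scripts were tested on simulated data. Named genes were the 10 members, the 3 most abundant genes of each pathway list and the genes said to be picked later; 1 gene that this rule names is not reported here. Members and lists were chosen with earlier results of these data known, and so were the motif letters. Python 3.11.15, pandas 2.3.3 and matplotlib 3.10.9 made the tables and figures.

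Alternatives were pseudocounts of 0.1 and 5, no filter, a mean of at least 5 FPKM, median-of-ratios and quantile scaling, the replicate block, each library left out, both replicates 3 left out, and limma voom on recovered fragments (its own filter on low counts). Deviations of same-numbered libraries from their group means correlated at 0.189, 0.262 and 0.545 for replicates 1, 2 and 3. The main test used no pairing, and replicate numbers were treated as pairs only in the replicate block. The labels state no pairing, and DSS replicate 2 correlated better with control replicate 1 (0.345) than with its own number.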

Additional observations from a re-analysis of the deposited data

How the results depend on the processing

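No member passed in the main comparison, and 0 passed with other pseudocounts, no filter, a mean of at least 5 FPKM, either scaling, the replicate block, voom or both replicates 3 left out. Leaving out 1 library gave 0 to 1 members called, the 1 being Zap70 without DSS replicate 1, and 0 to 8 pathway genes. Voom called 1 pathway gene, and the other alternatives 0. With the replicate block, as without it, 0 members and 0 pathway genes were called (Zap70 limma adjusted p = 0.166), so the block changed no call here. The number of members averaging at least 10 FPKM stayed 3 whichever library was left out. Over its 15 alternatives the Zap70 limma adjusted p ran from 0.0111 to 0.781.

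Over the members and alternatives, 107 comparisons kept sign and call, 1 passed and 8 turned sign. With 1 library left out, log2 changes ran from -0.32 to 1.09 for Cd3d, -0.31 to 0.21 for Cd3e, -0.22 to 0.33 for Cd3g, -0.079 to 0.43 for Cd247 and -0.44 to 0.21 for Cd4. Without DSS replicate 1 they were -0.32 for Cd3d, 0.035 for Cd3e, -0.22 for Cd3g and -0.079 for Cd247. Cd4 was 0.10 without DSS replicate 2 and 0.21 without control replicate 3. Cd3e was 0.21 without control replicate 3 and 0.060 without both replicates 3. The cause was not tested. The size of the Cd6 change moved with the setting, from -0.26 at a pseudocount of 5 to -1.97 at 0.1 and -2.80 by voom. Cd5 and Cd8a could be fitted only without the filter and by voom. Depth sets the counting error of Cd5 and Cd6, which had 2 to 173 fragments in a library.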

Other observations

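Among 6733 other genes with a mean of at least 5 FPKM, those whose pattern over the 6 libraries was most like the mean of Cd3d, Cd3e and Cd3g were H2ac8, Tmem147, Gtf2h2, H2ac11 and Wdr53. Their mean absolute difference from it was 0.0964, 0.103, 0.106, 0.108 and 0.126 on the log2 scale, each gene centred on its own mean. Each was highest in DSS replicate 1, at 0.78 to 0.88 above its own mean, as the CD3 mean was at 0.78. That peak was of Cd3d and Cd3g, while Cd3e had its lowest value of the 6 libraries there (1.62 FPKM). H2ac8 and H2ac11 encode histone H2A, and averaged 11.0 and 8.68 FPKM in DSS libraries and 7.91 and 6.97 FPKM in control libraries.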
